A study of Mus musculus with 3 samples.

Results

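Scap, the genes of the SREBP transcription factors and their INSIG retention proteins, and 3 enzymes of sterol synthesis were followed in mouse bone marrow progenitors. These are 8 of the 24982 gene symbols measured: Scap, Srebf1, Srebf2, Insig1, Insig2, Hmgcs1, Sqle and Fdps. They were selected on the WT and KO counts of these same libraries, with Scap at 0 counts in KO, so their own differences are given as a description with no test. RNA was sequenced from LKS cells (Lin-negative, Kit-positive, Sca1-positive, the marrow fraction that includes the stem cells). Sorting was from WT recipient mice (2 libraries, called WT replicates 1 and 2) and from CD73-/- recipient mice (1 library, called KO). CD73 is the ectoenzyme that makes adenosine from AMP. The sources used here do not give age, strain, any transplant, or the origin (donor or recipient) of the sorted cells, and nothing says that the WT libraries came from separate animals. With 2 libraries against 1, an exact permutation test over libraries could not fall below the usual threshold for any single gene.

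SREBPs are made as precursors held in the membrane of the endoplasmic reticulum. SCAP binds both the SREBP and cholesterol. When sterol is scarce, SCAP escorts the SREBP in COPII vesicles to the Golgi, where the proteases encoded by Mbtps1 and Mbtps2 release the active factor, and when sterol is plentiful, INSIG proteins retain the SCAP-SREBP complex. SREBP-2, from Srebf2, acts mainly on genes of sterol synthesis and uptake, and SREBP-1, from Srebf1, mainly on those of fatty acid synthesis. Insig1, Hmgcs1, Sqle and Fdps are textbook SREBP targets.

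The question put to the data was whether such targets followed Scap, so the promoter stretches upstream of 4 of the genes are shown first. They come from RefSeq (GRCm38.p6, the assembly that mm10 names), in which 6 of the 8 genes had at least 1 promoter entry, with 11 windows in all. Sqle and Fdps had none. In the 250 bases before each start, TCACNCCAC or TCACNCCAT, letters close to a sterol response element, were searched on both strands. A match was found in 2 of these 11 windows and in 1.71% of the 32851 windows of all genes. By gene, it was found in 2 of the 6, Hmgcs1 and Srebf2. The E-box letters CACGTG, which basic helix-loop-helix factors such as the SREBPs can also bind, were in 6.02% of all windows. The first 160 bases of each window are printed 5′ to 3′ on the plus strand, with both kinds of match in capitals.
Hmgcs1 (chr13:119690101-119690260): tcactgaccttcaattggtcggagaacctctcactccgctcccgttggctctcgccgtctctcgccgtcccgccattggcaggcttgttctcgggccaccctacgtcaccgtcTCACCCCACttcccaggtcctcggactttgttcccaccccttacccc
Srebf2 (chr15:82147019-82147178): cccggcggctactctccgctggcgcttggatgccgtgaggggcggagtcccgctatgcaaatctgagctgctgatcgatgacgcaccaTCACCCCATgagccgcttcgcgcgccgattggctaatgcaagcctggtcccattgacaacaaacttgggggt
Insig1 (chr5:28071162-28071321): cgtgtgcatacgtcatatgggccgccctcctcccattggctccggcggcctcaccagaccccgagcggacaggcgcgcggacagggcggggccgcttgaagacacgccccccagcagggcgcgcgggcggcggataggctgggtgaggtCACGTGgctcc
Scap (chr9:110333038-110333197): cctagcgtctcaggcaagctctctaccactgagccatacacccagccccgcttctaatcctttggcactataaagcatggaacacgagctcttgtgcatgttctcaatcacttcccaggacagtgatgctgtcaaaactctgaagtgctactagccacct
The match in Hmgcs1 began 137 bases before the start and that in Srebf2 162 bases before it. The Insig1 stretch holds the E-box letters alone, and the Scap stretch holds neither. A second Scap window in RefSeq, from 110333106 to 110333355, holds 1 E-box match and no match close to a sterol response element. A match in these letters is not a measured binding site.

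Depth was low. The libraries held 361638, 324954 and 264704 gene-level counts (WT replicate 1, WT replicate 2 and KO, the order used throughout), so that 3 counts, the floor set here for a count of 0, corresponded to 8.28, 9.08 and 11.5 CPM (counts scaled to a common library total with TMM factors). The WT libraries differed from each other beyond counting error, with a chi-square of 10.2 per gene, and 56.7% of the tested genes were at least 2-fold apart between them. In the comparison of KO with WT, edgeR's quasi-likelihood test called 8 of 7984 tested genes higher (0.100%) and 0 lower (0.00%) at an adjusted p of 0.05. At an unadjusted p under 0.05 it found 282 higher and 520 lower, and DESeq2 called 11 higher and 2 lower. DESeq2 gave no adjusted p for 3870 of the tested genes. These could not be called by it and count as not called throughout. Of the 8 genes followed here, 6 passed the filter on low counts and 0 were called by either tool. Since the genes were picked on this contrast, nothing is read from that count.

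Scap, the escort of the SREBPs, had 63 and 69 counts in WT and 0 in KO. In CPM these were 174 (95% counting interval 134 to 223), 209 (162 to 264) and 0 (0 to 14.2). The 3-count floor in KO, at 11.5 CPM, lies below the upper end of that last interval. The WT libraries lay within 1.20-fold of each other and neither approached the KO library. The WT mean was 191 ± 24.6 CPM (SD, n = 2), and the CPM of the pooled WT counts was 16.5-fold that 3-count floor in KO. A count of 0 was rare at this level: of 1104 genes that reached 50 counts in both WT libraries, 7 had 0 in KO (0.634%), Scap among them. Scap was chosen with its 0 known, so its place among these was set by the choice and nothing is read from it.

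The Scap gene lies on chromosome 9 from 110333288 to 110384950 on the plus strand (GENCODE M21, GRCm38) and is protein-coding. Its flanking protein-coding genes were both detected in KO. Ptpn23, a tyrosine phosphatase gene on the opposite strand, has its 3′ end 131 bases beyond the end of Scap and had 13, 27 and 14 counts. Elp6, a subunit of the Elongator complex, ends 11185 bases before Scap and had 33, 0 and 6 counts. The zero in KO was thus not shared by the flanking genes. Scap has 2 transcript rows in the files, and both were at 0 in KO. The deposited FPKM (a level scaled for transcript length and depth) was 36.7 for one transcript and 6.27 for the other in WT replicate 1, whereas in WT replicate 2 the first was listed at 0 and the second at 50.6. Their counts were 63 and 63, then 67 and 69, so nearly all reads were shared and the counts do not separate the transcripts.

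The SREBP genes were detected in all 3 libraries. Srebf2, the main regulator of sterol genes, had 71, 60 and 44 counts, or 196, 182 and 169 CPM. KO was the lowest library, but its counting interval (123 to 227 CPM) covered both WT values, and the ratio of KO to pooled WT counts was 0.895 (95% counting interval 0.621 to 1.27). Srebf1, the regulator of lipogenic genes, had 31, 59 and 33 counts, or 85.6, 179 and 127 CPM. The KO value fell between the WT values, which were themselves 2.09-fold apart, and the ratio to pooled WT was 0.978 (0.635 to 1.47). At this depth neither gene was separable between KO and WT. Srebf1 lies on chromosome 11 (60199089 to 60222581, minus strand) and shares 109 bases with Rai1 on the opposite strand (109, 102 and 44 counts). Srebf2 lies on chromosome 15 (82147181 to 82205379, plus strand).

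The retention genes were near the detection limit. Insig1, whose product holds the SCAP-SREBP complex in the endoplasmic reticulum and which is itself an SREBP target, had 5, 4 and 5 counts (13.8, 12.1 and 19.2 CPM). KO was highest, with a ratio to pooled WT of 1.48 and a counting interval from 0.390 to 4.92. Insig2, the second retention gene, had 0, 4 and 5 counts (0, 12.1 and 19.2 CPM), with a ratio of 3.33 (0.717 to 16.8). Neither gene passed the filter on low counts, and both intervals included a ratio of 1. Insig1 is on chromosome 5 (28071363 to 28078662, plus strand) and Insig2 on chromosome 1 (121304353 to 121332589, minus strand).

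KO values of the 3 enzymes lay on both sides of WT. Fdps, the farnesyl diphosphate synthase that joins isoprene units for sterols and for protein prenylation, had 13, 19 and 0 counts (35.9, 57.5 and 0 CPM). It shared with Scap a count of 0 in KO, and the CPM of its pooled WT counts was 4-fold the 3-count floor. At this lower level zeros were more common: 328 of 4604 genes with at least 10 counts in both WT libraries had 0 in KO (7.12%). Sqle, the squalene epoxidase, had 4, 21 and 2 counts (11.0, 63.5 and 7.70 CPM). Its KO value was below both WT values, but WT replicate 2 was 5.75-fold above WT replicate 1, and the ratio of KO to pooled WT was 0.213 (0.0245 to 0.855). The log2 ratio of KO to WT replicate 1 alone was -0.52 and to WT replicate 2 alone -3.05, so the size of the gap rests on WT replicate 2. Hmgcs1, the cytosolic HMG-CoA synthase at the head of the pathway, had 5, 1 and 9 counts (13.8, 3.03 and 34.6 CPM). It was highest in KO, with a ratio to pooled WT of 4 (1.27 to 13.7). These intervals cover counting error only and take no account of the spread between libraries, which for Hmgcs1 was 4.56-fold within WT. Hmgcs1 passed the filter through the KO library, where it was highest. Hmgcs1 is on chromosome 13 (119690379 to 119708260, plus strand), Sqle on chromosome 15 (59315077 to 59331192, plus strand) and Fdps on chromosome 3 (89093588 to 89101959, minus strand). Fdps is overlapped over 7512 bases on its own strand by the annotated gene Gm43738, which was not analysed here.

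**Figure D1:**
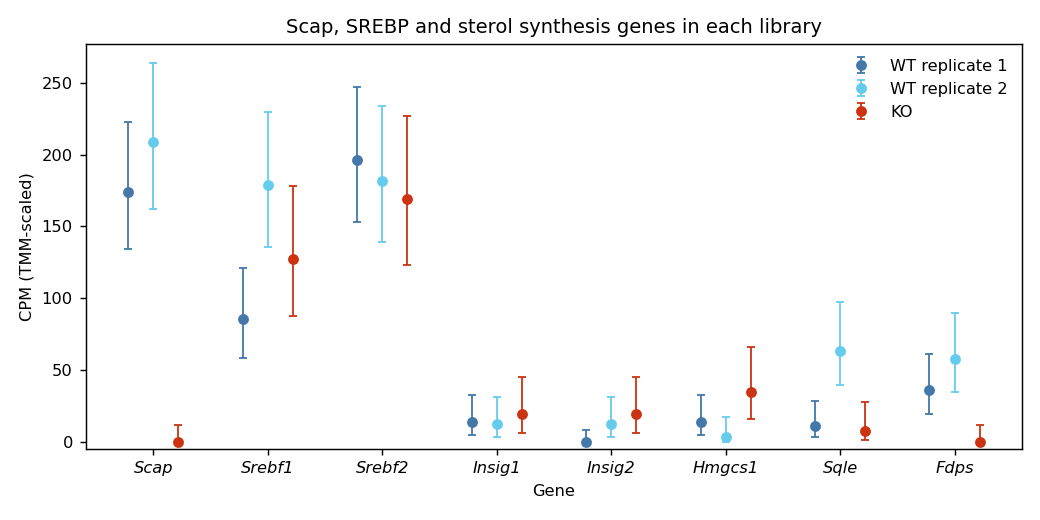
TMM-scaled CPM (vertical axis) of the 8 genes (horizontal axis) in WT replicate 1, WT replicate 2 and KO, with exact 95% Poisson counting intervals as bars (for a count of 0, a bar up to the 3-count floor). Scap and Fdps are at 0 in KO, Srebf1 and Srebf2 overlap between KO and WT, and Hmgcs1 is highest in KO.

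In all, KO was below both WT libraries for 4 of the 8 genes (Scap, Srebf2, Sqle and Fdps), above both for 3 (Insig1, Insig2 and Hmgcs1) and between them for Srebf1. Among all tested genes KO was below both for 37.6% and above both for 32.2%. The genes that code for SREBP targets were on both sides: Fdps and Sqle below, Insig1 and Hmgcs1 above. Of these 4 only Fdps also had 0 counts in KO. With the genes chosen on these counts, and Insig1 and Hmgcs1 at 9 counts or fewer in each library, whether the targets follow Scap was not settled.

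Per transcript length, the order of levels in WT was Scap at 46.8 ± 5.44 FPKM (SD, n = 2, as for each value in this order), Srebf2 at 41.9 ± 1.74, Fdps at 38.2 ± 12.9 and Srebf1 at 33.4 ± 17.0, summed over transcripts. Sqle followed at 13.9 ± 13.9 FPKM, then Insig1 at 4.97 ± 0.398, Insig2 at 3.08 ± 4.35 and Hmgcs1 at 2.42 ± 2.17. Each neighbouring pair in this order differed by less than the sum of its SDs. The first 4 genes, at 21.4 FPKM or more in each WT library, did not overlap with Insig1, Insig2 and Hmgcs1, at 6.16 or less. In KO the order was Srebf2 at 36.9 FPKM, Srebf1 at 31.4, Hmgcs1 at 9.80, Insig2 at 9.50, Insig1 at 7.23 and Sqle at 2.79, with Scap and Fdps at 0.

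In the wider set of sterol synthesis enzymes KO values also lay on both sides of WT. Of 23 listed genes 22 were found in the files, 20 had a count and 13 passed the filter. Of the 10 tested enzymes other than Hmgcs1, Sqle and Fdps, edgeR called 0 higher and 0 lower (0 higher and 1 lower at an unadjusted p under 0.05), and so did DESeq2. KO was below both WT libraries for 4 of them, above both for 4 and between for 2. The median fitted log2 fold change of the 13 was -0.69, and of the 10 it was -0.32, against -0.31 over all tested genes. Without WT replicate 1 the median of the 13 was -0.21, and it was -0.13 over all genes. Summed over the list the enzymes gave 820, 938 and 774 CPM.

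Among abundant enzymes of the list, KO values lay on both sides of WT. Lbr, a sterol reductase that is also the lamin B receptor, had 86, 61 and 34 counts (log2 fold change -0.69, SE 1.03). Acat2, which supplies acetoacetyl-CoA, had 57, 32 and 10 counts (-1.71, SE 1.44), and Ebp, a sterol isomerase, had 3, 32 and 35 (1.36, SE 1.39). None of these passed the test, and for Ebp the WT libraries were further apart than KO was from WT replicate 2.

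Counts of 0 in KO also occurred in other enzymes, named here after their values were seen. Dhcr7, which makes cholesterol from its last precursor, had 14, 8 and 0, Sc5d, a sterol desaturase, had 10, 6 and 0. Fdft1, the squalene synthase that acts before Sqle, had 0, 11 and 0, so that WT replicate 1 was at 0 as well. In the opposite direction, Tm7sf2, a sterol reductase of the same step as Lbr, had 0, 0 and 13 counts, Mvd, the mevalonate decarboxylase, had 0, 6 and 18, and Cyp51, the lanosterol demethylase, had 1, 1 and 9. A count of 0 in KO was found for 12.6% of all tested genes.

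**Figure D2:**
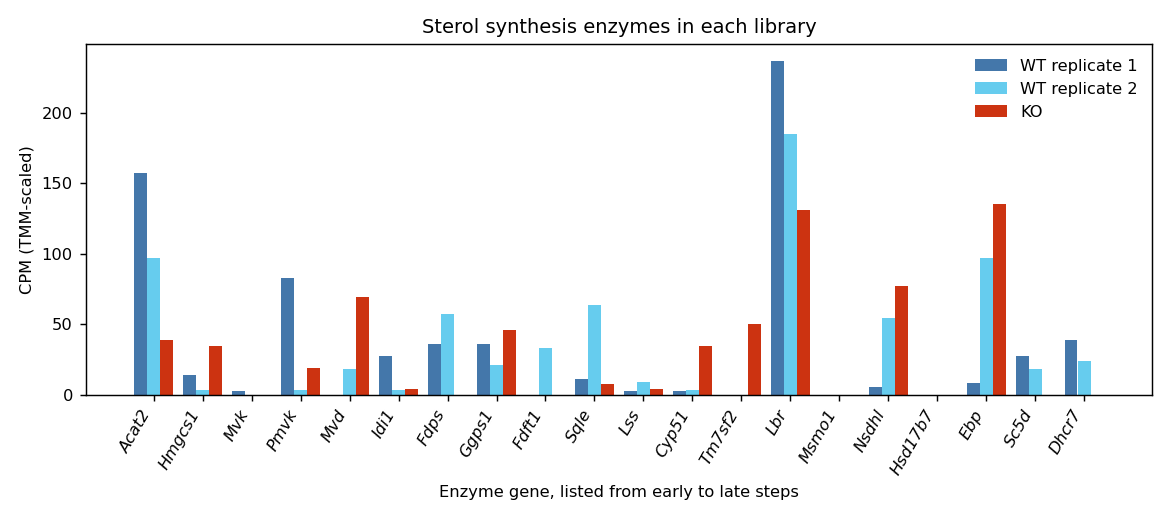
TMM-scaled CPM (vertical axis) of 20 sterol synthesis enzyme genes (horizontal axis, listed from early to late steps) in the 3 libraries, one bar per library. KO is at 0 for Mvk, Fdps, Fdft1, Sc5d and Dhcr7 and is the tallest bar for Hmgcs1, Mvd, Ggps1, Cyp51, Tm7sf2, Nsdhl and Ebp, while Msmo1 and Hsd17b7 are at 0 in all 3.

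Genes that act with Scap in SREBP processing were mostly detected in KO. Of 10 tested genes of that list besides Scap, Srebf1 and Srebf2, edgeR and DESeq2 each called 0 higher and 0 lower (1 higher and 0 lower at an unadjusted p under 0.05 with each). The list median over 13 tested genes was -0.91, and it was -0.10 without WT replicate 1, -0.46 without WT replicate 2 and -0.17 with no filter. The same medians over all tested genes were -0.31, -0.13, -0.11 and -0.60. Mbtps1, the site-1 protease, had 34, 81 and 22 counts and did not pass the test (adjusted p 0.843 with edgeR, ratio of KO to pooled WT 0.510), and the WT libraries were further apart than KO was from WT replicate 1. Mbtps2, the site-2 protease, had 9, 4 and 7 counts and was not tested. Among the COPII genes, which form the vesicles that carry SCAP, 0 of 10 tested passed in either direction with either tool (0 higher and 1 lower at an unadjusted p under 0.05 with each), with a median of 0.03 (-0.29 without WT replicate 1). Preb, the exchange factor for Sar1, had 64, 155 and 78 counts. The most abundant coat genes, Sec24c, Sec13 and Sec31a, had 59, 96 and 60, then 11, 74 and 69, and 10, 50 and 33 counts. On the CPM scale KO lay between the WT values for Sec24c and Sec31a and above them for Sec13. Over the 10 tested COPII genes KO was below both WT libraries for 3 (37.6% over all tested genes), above both for 2 (32.2%) and between for 5. Of these 10, 2 had 0 counts in KO, as did 12.6% of all tested genes.

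Genes of sterol uptake and lysosomal egress, several of them SREBP targets, had a median log2 fold change of -1.12 (10 tested), against -0.31 over all tested genes. Without WT replicate 2 it was -0.57, against -0.11 over all tested genes. KO was below both WT libraries for 6 of the 10 (37.6% over all tested genes) and above both for 2 (32.2%). None passed with edgeR or DESeq2 (0 higher and 1 lower at an unadjusted p under 0.05 with each). Npc1 and Npc2, which move cholesterol out of lysosomes, had 23, 32 and 14, and 44, 23 and 36 counts. Stard3, a late endosomal sterol carrier, had 35, 9 and 25. Vldlr, a lipoprotein receptor, had 57, 10 and 1 counts, with a ratio of KO to pooled WT of 0.0398 (counting interval 0.000993 to 0.229) that rests largely on WT replicate 1.

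Fatty acid synthesis genes, the main SREBP-1 targets, had a median log2 fold change of -0.59 (12 tested), against -0.31 over all tested genes. KO was below both WT libraries for 6 (37.6% over all tested genes), above both for 3 (32.2%) and between for 3. Again 0 were called by either tool (0 higher and 3 lower at an unadjusted p under 0.05 with each). At that unadjusted p edgeR found 282 higher and 520 lower among all 7984 tested genes. Acss2, the cytosolic acetyl-CoA synthetase, had 47, 38 and 0 counts and resembled Scap (adjusted p 0.207, edgeR). Its WT libraries agreed within 1.13-fold, and the CPM of its pooled WT counts was 10.6-fold the KO floor. Acly, the citrate lyase that also feeds acetyl-CoA into lipid synthesis and is named after seeing its values, had 52, 57 and 2 counts, a ratio of 0.0489 with a counting interval from 0.00585 to 0.181 (adjusted p 0.280, edgeR). The enzymes downstream were present: Fasn, the fatty acid synthase, had 65, 110 and 33 counts (log2 fold change -1.01, SE 0.98), and Scd2, a desaturase, had 124, 75 and 40 (-0.89, SE 0.91). Elovl1, an elongase, had 51, 88 and 9 (-2.54, SE 1.27), and Acsl3, an acyl-CoA ligase, had 51, 4 and 47. For Acss2, Acly, Fasn, Scd2 and Elovl1 the KO library lay below both WT libraries, and for none of them did the difference pass the test.

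Genes of sterol sensing by LXR and of efflux or storage had a median of -1.72 over 10 tested genes, which turned to 0.35 without WT replicate 1 and to 0.71 over the 3 of them that reached 50 counts in any library. The median over all tested genes was -0.31 (-0.13 without WT replicate 1 and -0.11 without WT replicate 2). In this list KO was below both WT libraries for 5 (37.6% over all tested genes) and above both for 4 (32.2%). With either tool 0 passed (0 higher and 2 lower at an unadjusted p under 0.05 with each). The receptors Nr1h2 (LXR beta, 63, 41 and 61 counts) and Rxrb (71, 41 and 63) were highest in KO on the CPM scale. Apoe, the apolipoprotein, had 81, 54 and 26 counts and Nceh1, a cholesteryl ester hydrolase, 6, 12 and 28. Soat2, which esterifies cholesterol, had 25, 25 and 0 counts, with the CPM of its pooled WT counts 6.25-fold the KO floor. Among the oxysterol-binding proteins, 9 of which were tested with a median of -0.86 (-0.40 without WT replicate 1 and -0.39 without WT replicate 2), 0 passed with either tool (0 higher and 2 lower at an unadjusted p under 0.05 with each). Osbpl7 had 84, 49 and 0 counts (adjusted p 0.0682, edgeR), with the CPM of its pooled WT counts 16.6-fold the KO floor. Osbpl8 had 42, 42 and 7 counts, Osbp 12, 32 and 19, and Osbpl9 17, 3 and 32.

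The genes most like Scap over the 3 libraries were found by the Euclidean distance of log2(CPM + 1) among all tested genes. The nearest was Samm50, a mitochondrial outer membrane assembly protein, with 60, 60 and 0 counts at a distance of 0.21. Next came Nt5dc2 (51, 70 and 0 counts, distance 0.30), Nelfcd, a subunit of a transcription elongation factor (51, 67 and 0, distance 0.31), Crtc2, a CREB coactivator (62, 55 and 0, distance 0.33), and Pglyrp2, a peptidoglycan amidase (50, 67 and 0, distance 0.33). All 5 had 0 counts in KO, and none is among the SREBP pathway lists. The likeness rests on 3 libraries, with the KO value identical by being 0.

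**Figure D3:**
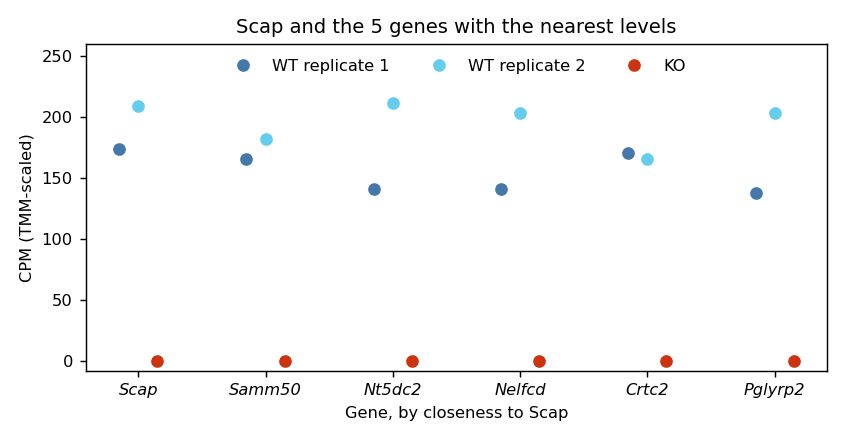
TMM-scaled CPM (vertical axis) of Scap and the 5 tested genes nearest to it (horizontal axis, nearest first), one point per library. All 6 genes lie between 138 and 212 CPM in WT and at 0 in KO.

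Counts of 0 were unequally spread over the libraries. Among 2362 genes with a mean over the 3 libraries from 50 to 100 CPM, 73 and 80 had 0 counts in the WT libraries and 167 in KO (3.09%, 3.39% and 7.07%). From 100 to 200 CPM, the range that holds Scap with a mean of 128 CPM, the numbers were 4, 5 and 17 of 1580 genes (0.253%, 0.316% and 1.08%). KO was also the shallowest library. The part that depth or library complexity had in the zero of Scap was not tested.

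**Figure D4:**
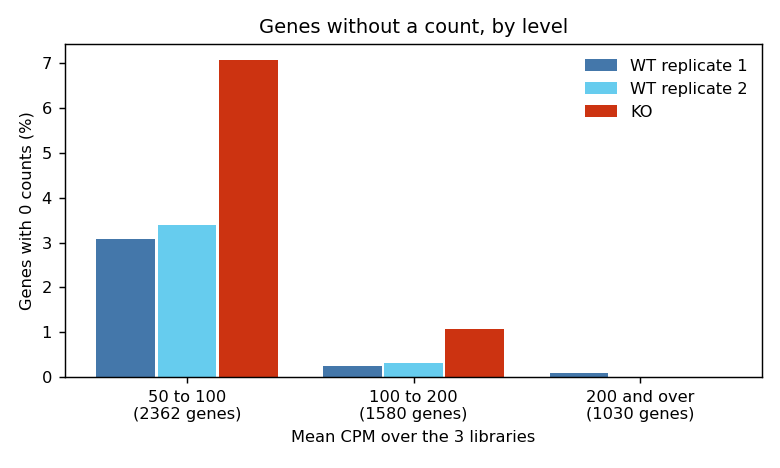
Share of genes with 0 counts (vertical axis, percent) in each library, by the gene's mean CPM over the 3 libraries (horizontal axis, with the number of genes). KO has the highest share from 50 to 100 CPM (7.07%) and from 100 to 200 CPM (1.08%).

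The labelled cell type was checked on marker genes. Kit and Ly6a (the gene of Sca1), on which the cells were sorted, had 187, 207 and 147 and 60, 19 and 36 counts. The LKS and early progenitor list (11 of 11 genes with a count) summed to 2429, 2684 and 1747 CPM. KO was below both WT libraries for 7 of its 10 tested genes (37.6% over all tested genes), above both for 1 and between for 2. Of these 10, edgeR and DESeq2 each called 0. Mecom, of the same list, had 31, 21 and 0 counts (adjusted p 0.328, edgeR). The CPM of its pooled WT counts was 6.5-fold the KO floor. Nt5e, the gene of CD73, was at 0 in every library, so the KO label could not be checked on it. Markers of other cell types were also present, at levels from 0 to above that of Kit. Per transcript length S100a9, of the mature neutrophil list, was at 491, 976 and 265 FPKM, and Kit at 101, 124 and 109. In the B lineage list 4 of 9 genes had a count (16.6, 63.5 and 7.70 CPM in sum), with Cd79a at 0 throughout and Cd79b at 5, 17 and 0 counts. In the T and NK list 4 of 10 had a count (304, 103 and 158 CPM), with Cd3e at 0 throughout, Lck at 40, 0 and 0 counts and Nkg7 at 68, 32 and 41. The erythroid list (7 of 12 with a count, Klf1 at 0) summed to 707, 411 and 935 CPM. KO was above both WT libraries for 4 of its 5 tested genes (32.2% over all tested genes). That count is partly set by the filter on low counts. Car1 (0, 0 and 20 counts), Epor (3, 0 and 25) and Ermap (8, 0 and 10) passed it only through KO. Epor and Ermap are named after their values were seen. The monocyte and macrophage list (9 of 10 with a count) summed to 196, 647 and 466 CPM, the mature neutrophil list (10 of 10) to 828, 1129 and 385 CPM and the stroma and endothelium list (2 of 10) to 144, 188 and 131 CPM.

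The dendritic cell list (7 of 10 genes with a count) summed to 439 and 1147 CPM in WT and 3452 in KO, but its members did not move together. The sum was carried by the MHC class II genes H2-Aa (0, 9 and 106 counts), H2-Ab1 (24, 11 and 201) and H2-Eb1 (19, 21 and 156) with Cd74 and Irf8, and only H2-Aa and H2-Ab1 passed edgeR's test (adjusted p 0.0308 and 0.0044). Flt3, a progenitor receptor that dendritic cells share, had 104, 151 and 56 counts, Itgax 4, 0 and 0, and Siglech, Batf3 and Zbtb46 were at 0. In bulk RNA, fewer cells of a type and less RNA per cell cannot be told apart, and the part of these cells in the values of Scap, Fdps or the other genes was not tested.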

How the data were processed

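The authors deposited, for each library, counts (whole numbers) and FPKM per RefSeq transcript, in files without a header. STAR and mm10 are named, without version or role, per the submitters' processing notes. For the counting tool, the FPKM tool and strand, the sources used here give nothing. Transcripts of 1 gene repeat shared reads, so the gene count was the highest count over a symbol's rows, and the gene FPKM was the sum over rows.

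Counts of 2 WT libraries and 1 KO library were fitted in R 4.3.3 using edgeR 4.0.16 (its filterByExpr at a minimum count of 10 and a total of 15, TMM, quasi-likelihood F-test, Benjamini-Hochberg over all tested genes, threshold 0.05). All spread came from the WT pair, may be technical, and was taken to hold for KO too. The common biological coefficient of variation was 0.81. SE was the log2 fold change over the square root of F. DESeq2 1.42.0, which substituted a local dispersion fit, gave 3870 adjusted p-values as NA. Count intervals are exact Poisson and ratio intervals exact binomial (Clopper-Pearson), at 95%. Both cover only counting error and hold no term for spread between libraries. PCR copies were not told apart here, so they may be too narrow even for counting error.

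The members and gene lists were chosen with earlier results of these data known. Named genes were the 8 members, the 5 genes nearest to Scap, its flanking genes, and from each list the called genes, those at 0 in 1 group with at least 20 counts in each library of the other, and the 4 most abundant. Others are said to be named after their values were seen. Some listed genes are counted in the lists but not reported here by name. Alternatives were DESeq2, library totals in place of TMM, 2 other filters, mean counts over transcript rows, log2(FPKM + 1) of the highest FPKM row (pseudocount 1), leaving out each WT library and, added after seeing the data, genes at 0 set to a bound of 3 counts. Gene positions are from GENCODE M21.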

Additional observations from a re-analysis of the deposited data

How the results depend on the processing

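The number of genes past the threshold was 8, and it was 13 with DESeq2, 4 with no filter on low counts, 16 (15 higher and 1 lower) among genes reaching 50 counts in any library, and 1 with the mean count over transcript rows. None of these calls was Scap or another of the 8 genes. The median of the sterol synthesis enzymes (-0.69) was -0.92 with no filter, -1.09 over the 2 genes with at least 50 counts and 0.01 on log2(FPKM + 1) of the highest FPKM row. The median of the sterol uptake genes (-1.12) was -4.35 with at least 50 counts, where Vldlr alone was left, and that of the oxysterol-binding proteins (-0.86) was -8.89 over the 1 gene left there. That of the fatty acid genes (-0.59) was -0.30 with no filter and -0.92 over 5 genes with at least 50 counts. Leaving out 1 WT library gave -0.50 to -0.21 for sterol synthesis, -0.96 to -0.57 for uptake and -0.82 to -0.51 for fatty acid synthesis, and -0.13 to -0.11 over all tested genes (-0.31 with both). These are values with no test. The fitted log2 fold change of Srebf1 (-0.05) was 0.57 without WT replicate 2 and -0.49 without WT replicate 1. The fitted values of Scap and Fdps depend on how a count of 0 is treated, and at the bound of 3 counts they were -4.05 and -2.02. The cause of these shifts was not tested. Values for single genes and other lists under the alternatives were set against the SD of the results without each WT library. Of these, 68 moved by less and 28 by that much or more. That SD is drawn from the leave-out values themselves, so the split is no measure of stability. Sqle, at -2.22 with both WT libraries and -0.50 without WT replicate 2, counted among the 68. No paired analysis was possible because KO has 1 library and its label carries no replicate number. With 3 counts at 8.28 to 11.5 CPM, Insig1, Insig2, Hmgcs1 and Sqle were too shallow to show moderate differences.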
